A study of Mus musculus with 6 samples.

Results

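The 10 genes described here encode the core of mitochondrial fatty acid β-oxidation: Cpt1a, Cpt1b, Cpt2, Acadvl, Acadl, Acadm, Acads, Hadha, Hadhb and Hadh. Their probe sets were taken by 1 rule, that the array annotation names exactly 1 of these genes and no other gene. The rule found 17 probe sets for 9 of the 10 genes, among 45101 probe sets and 18193 measured genes in all. Cpt1b had no probe set of its own, because its probe set is annotated to 2 further genes as well, and that shared probe set is described apart from the members.

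RNA came from inguinal white adipose tissue, a subcutaneous fat depot, of 3 Naa10-KO and 3 wild-type (WT) male mice, with 1 Affymetrix Mouse Genome 430 2.0 array per mouse. Naa10 catalyses the acetylation of protein N-termini. Both genotypes received a high-fat diet that supplied 60% of calories as fat, started at an age of 6 weeks and lasting 15 weeks, and both were held at 4 °C for 4 h before tissue collection. The labels do not say how the allele was made, in which tissues it is lost, or which strain was used. The RNA is that of whole tissue, so fewer cells of a type and less RNA per cell cannot be told apart. The annotation names no probe set for Naa10 itself, which was not analysed here, so the targeted transcript gives no check of the genotypes.

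In β-oxidation, long-chain acyl groups are joined to carnitine by carnitine palmitoyltransferase 1 on the outer mitochondrial membrane, carried inward, and returned to coenzyme A by Cpt2 on the inner membrane. Each turn of the spiral then consists of a dehydrogenation, a hydration, a second dehydrogenation and a thiolytic cleavage that releases acetyl-CoA. Brown and beige adipocytes, which burn fat to make heat in the cold, rely on the pathway, and Cpt1b is the form of carnitine palmitoyltransferase 1 that muscle and brown fat use, while Cpt1a is the form best known from liver. Malonyl-CoA, the first product of fatty acid synthesis, inhibits both forms.

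Upstream sequences from RefSeq (build GRCm38.p6) were matched by symbol for 9 of the 10 genes, and 3 stretches are shown, each within the 250 bases before a gene start. The first is the stretch that the upstream windows of Hadha and Hadhb have in common, shown because these 2 subunits of 1 enzyme are transcribed away from each other from neighbouring starts. The second belongs to Cpt1a, the entry enzyme, and the third to Acads, the member with the lowest adjusted p. Capitals mark matches, on either strand, to GGGCGG (a GC box, CCGCCC when read from the other strand) or AGGTCA (the half-site of many nuclear receptors, TGACCT from the other strand).
Hadha and Hadhb, chr5:30155003-30155230, plus strand: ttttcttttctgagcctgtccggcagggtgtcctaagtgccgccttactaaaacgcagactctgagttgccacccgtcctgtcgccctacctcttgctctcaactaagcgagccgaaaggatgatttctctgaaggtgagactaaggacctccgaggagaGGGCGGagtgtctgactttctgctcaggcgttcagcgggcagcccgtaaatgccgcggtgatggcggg
Cpt1a, chr19:3323051-3323300, plus strand: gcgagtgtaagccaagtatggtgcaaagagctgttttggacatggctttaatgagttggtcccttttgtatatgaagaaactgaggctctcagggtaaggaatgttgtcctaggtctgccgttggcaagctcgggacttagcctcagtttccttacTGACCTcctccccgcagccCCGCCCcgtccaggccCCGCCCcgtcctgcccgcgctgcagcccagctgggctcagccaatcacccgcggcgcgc
Acads, chr5:115119347-115119596, minus strand: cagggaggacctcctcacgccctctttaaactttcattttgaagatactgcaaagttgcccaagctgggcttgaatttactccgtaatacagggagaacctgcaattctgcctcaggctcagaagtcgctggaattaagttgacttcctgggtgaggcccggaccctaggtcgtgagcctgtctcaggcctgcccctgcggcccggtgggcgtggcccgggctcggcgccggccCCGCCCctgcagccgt

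GGGCGG occurred in the windows of 7 of the 9 members (Cpt1a, Cpt2, Acadl, Acads, Hadha, Hadhb and Hadh), and in 32.7% of all 32851 upstream windows of 250 bases. The windows of Hadha and Hadhb share 228 bases and are not separate cases. The match 188 to 183 bases before Hadha is the same site as that 90 to 85 bases before Hadhb. AGGTCA occurred in 3 of the 9 (Cpt1a, Acadvl and Acadm), and in 14% of all windows. In Cpt1a the match lies 94 to 89 bases before the start, in Acadvl 87 to 82 bases and in Acadm 249 to 244 bases. These are matches of letters and no measure of binding.

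None of the 9 measured genes passed the test between Naa10-KO and WT fat. With limma and an adjusted p under 0.05 over all genes, 0 of 9 were called, against 0.115% of all genes (21 of 18193; 0.0879% were higher and 0.0275% lower in Naa10-KO), and 0 of 9 had an unadjusted p under 0.05, against 9.2% of all genes. Their adjusted p-values lay between 0.56 and 0.958. Means were higher in Naa10-KO for 4 genes and lower for 5, and 51.4% of all genes had a higher mean in Naa10-KO. The median difference, Naa10-KO minus WT, was −0.05 on the log2 scale, against 0.01 over all genes. The median size of the difference, whatever its sign, was 0.0744 for the 9 members and 0.174 for the 4291 genes whose mean was at least that of the dimmest member. Values below are deposited log2 signals in the order of mice 1 to 3 of each genotype, and levels are not compared between probe sets.

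**Figure D1:**
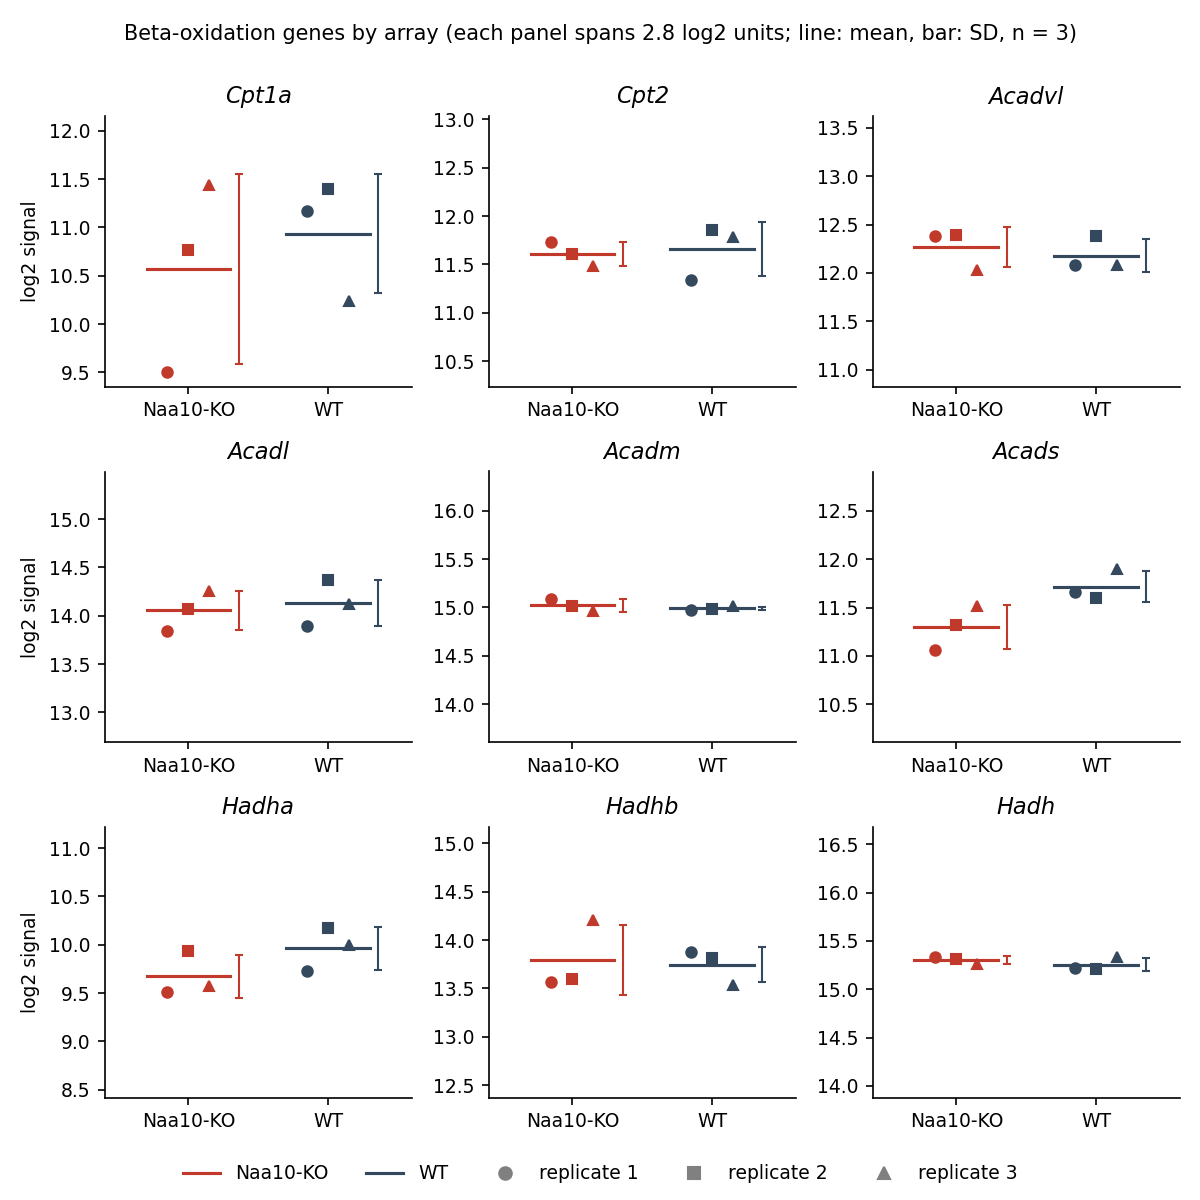
Log2 signal of the 9 measured members on each array, by gene, for Naa10-KO (left) and WT (right); points are arrays, lines are means and bars are SD (n = 3 each), and every panel spans the same number of log2 units. The genotypes overlap for every gene but Acads, and Cpt1a has the widest spread among mice.

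Cpt1a, the outer-membrane transferase of liver type, was represented by the brightest of its 3 probe sets, which read 9.50, 10.76 and 11.44 in Naa10-KO fat, against 11.17, 11.40 and 10.24 in WT fat. The lowest and the highest array were both Naa10-KO, so the ranges overlapped throughout. The means were 10.57 ± 0.99 in Naa10-KO and 10.94 ± 0.61 in WT (SD, n = 3 each), a difference of −0.37 (SE 0.59, limma adjusted p = 0.856). The 95% interval runs from 0.277-fold to 2.17-fold of WT and leaves room for a change in either direction. The probe set 1460409_at of the same gene was far tighter, with 9.93, 10.43 and 10.15 in Naa10-KO against 9.94, 10.28 and 10.37 in WT. Its difference was −0.03 (SE 0.23), with an interval of −0.61 to 0.56. The probe set 1438156_x_at gave 8.30, 8.25 and 9.12 in Naa10-KO against 8.71, 8.88 and 7.89 in WT, a difference of 0.06 (SE 0.39). The 3 Cpt1a probe sets thus give both signs, each inside its error, and without Naa10-KO mouse 1 the difference of the brightest was 0.17. That array also had the highest 3′ minus 5′ signal of the Gapdh control probe sets, 0.549 on the log2 scale, against −0.187 to 0.0119 for Naa10-KO mice 2 and 3 and −0.269 to −0.17 in WT. It was the lowest of the 6 arrays for Cpt1a, Acadl, Acads and Hadha, and the highest for Acadm and Hadh. The median deviation of the 9 members from their means over the 6 arrays was −0.201 on it. That deviation was −0.0162 and 0.0124 for Naa10-KO mice 3 and 2 and −0.0578 to 0.155 in WT. Without Naa10-KO mouse 1, Acads differed by −0.30, Hadha by −0.21 and Acadl by 0.03, and the part of RNA quality in these differences was not tested.

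Cpt2, the inner-membrane transferase, read 11.73, 11.61 and 11.49 in Naa10-KO and 11.34, 11.86 and 11.79 in WT. The Naa10-KO arrays lay inside the WT range, and the difference was −0.05 (SE 0.19, limma adjusted p = 0.939). Its second, dimmer probe set 1447820_x_at read 6.38, 5.07 and 6.99 in Naa10-KO against 6.97, 6.30 and 6.80 in WT, with a difference of −0.54 (SE 0.54).

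The acyl-CoA dehydrogenases carry out the first step of each turn and divide the substrates by chain length: Acadvl takes very long chains, Acadl long chains, Acadm medium chains and Acads short ones. Acads was the one gene of the 9 in which the genotypes did not overlap, with 11.06, 11.31 and 11.52 in Naa10-KO fat, against 11.66, 11.60 and 11.89 in WT fat. Non-overlap in either direction occurred in 18.1% of all genes, and in this direction in 8.14%. Among the 4291 genes at least as bright as the dimmest member, non-overlap in either direction occurred in 1232. Acads averaged 11.30 ± 0.23 in Naa10-KO and 11.72 ± 0.16 in WT (SD, n = 3 each), which is 0.747-fold of WT with a 95% interval of 0.542 to 1.03. The difference of −0.42 (SE 0.18) missed the threshold with an unadjusted p of 0.0674 and an adjusted p of 0.56 (limma). Over the 16 alternatives it stayed between −0.53 and −0.30, with adjusted p-values from 0.256 to 0.8.

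The other 3 dehydrogenases differed by less than 0.1 on the log2 scale in their brightest probe sets. Acadm read 15.09, 15.02 and 14.96 in Naa10-KO against 14.98, 14.98 and 15.01 in WT, a difference of 0.03 (SE 0.13) with an interval of 0.821-fold to 1.27-fold. Acadvl read 12.38, 12.39 and 12.03 in Naa10-KO against 12.08, 12.38 and 12.08 in WT, a difference of 0.09 (SE 0.18). Acadl read 13.84, 14.07 and 14.25 in Naa10-KO against 13.90, 14.37 and 14.12 in WT, a difference of −0.07 (SE 0.20). Their adjusted p-values were 0.945 for Acadm, 0.892 for Acadvl and 0.915 for Acadl (limma), and the genotypes overlapped in each. A second Acadl probe set, 1448988_at, read 2.81, 5.56 and 5.53 in Naa10-KO and 5.10, 6.65 and 6.15 in WT. All 3 Naa10-KO arrays and 1 WT array lay below 5.86, the median of all probe set values, which serves here as a mark of low signal since no detection calls were used.

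Hadha and Hadhb encode the α and β subunits of the mitochondrial trifunctional protein, which performs the last 3 steps of a turn on long chains. Hadha read 9.51, 9.93 and 9.58 in Naa10-KO and 9.72, 10.17 and 9.99 in WT, a difference of −0.29 (SE 0.20, limma adjusted p = 0.676) with overlapping ranges. Hadhb read 13.57, 13.60 and 14.21 in Naa10-KO and 13.88, 13.82 and 13.54 in WT in its brightest probe set, a difference of 0.05 (SE 0.24, limma adjusted p = 0.958). The Hadhb probe set 1426522_at, nearly as bright, gave a difference of 0.08 (SE 0.22), also inside its error.

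The dimmest Hadhb probe set, 1442732_at, differed from the other two in its separation of the genotypes. It read 7.49, 7.0 and 7.57 in Naa10-KO fat against 6.73, 6.76 and 5.81 in WT fat, with every Naa10-KO array above every WT array. The difference of 0.92 (SE 0.35) had an unadjusted p of 0.0422 and an adjusted p of 0.665 over 45037 probe sets (limma). In that test 0% of all probe sets were called, 0 of 17 among the members, while 3362 probe sets (7.46%) and this 1 member probe set had an unadjusted p under 0.05. Naa10-KO lay above WT without overlap in 8.09% of all probe sets, and below it in 7.82%.

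Hadh, the short-chain 3-hydroxyacyl-CoA dehydrogenase of the matrix, read 15.34, 15.31 and 15.26 in Naa10-KO against 15.22, 15.21 and 15.33 in WT. The difference was 0.05 (SE 0.13, limma adjusted p = 0.916). Its probe set 1460184_at read 14.27, 14.27 and 14.11 in Naa10-KO and 14.14, 14.19 and 14.20 in WT, a difference of 0.04 (SE 0.17). The third, 1436756_x_at, scattered widely, with 9.52, 6.41 and 10.17 in Naa10-KO against 9.53, 10.21 and 7.77 in WT, and its difference of −0.47 had an SE of 1.19.

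**Figure D2:**
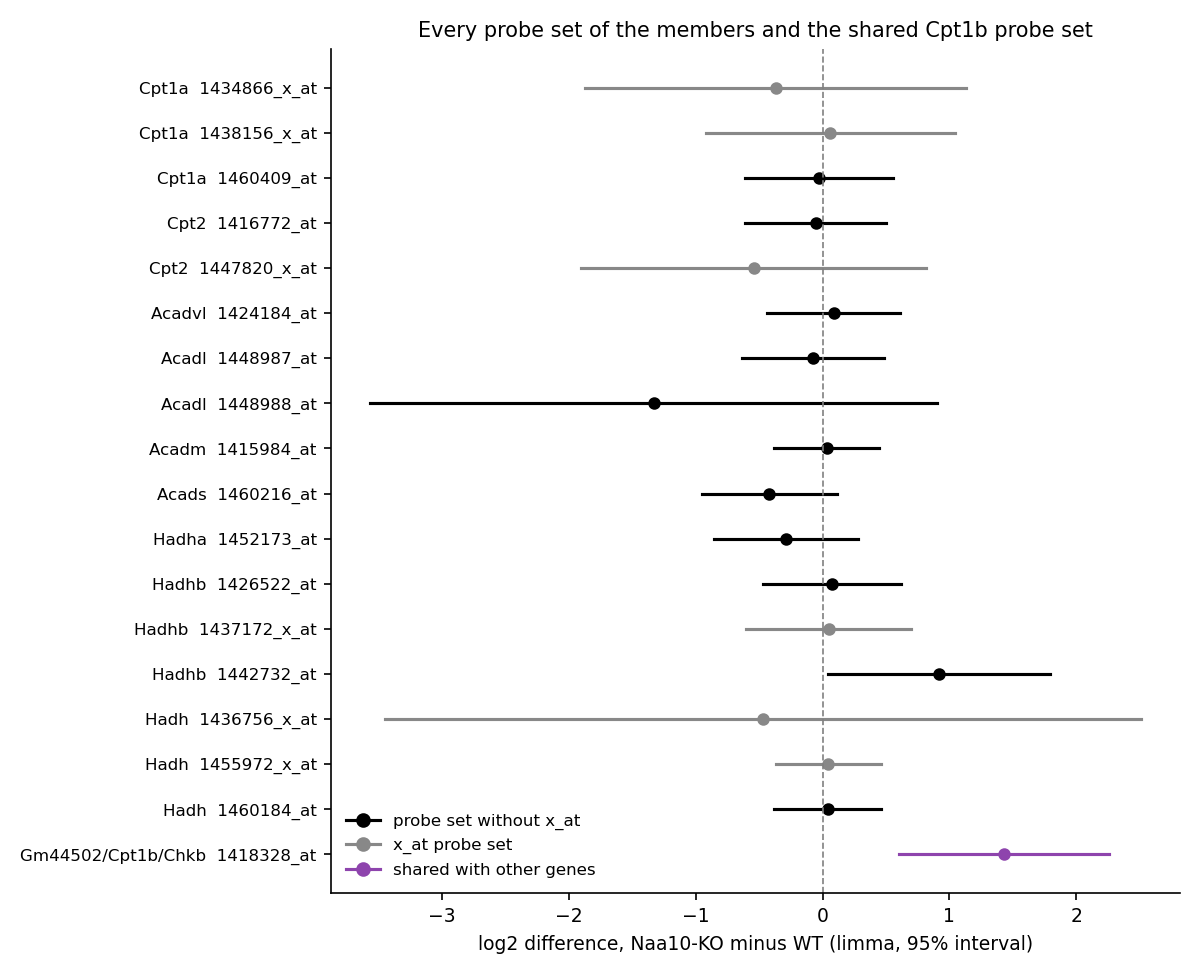
Log2 difference, Naa10-KO minus WT, of each of the 17 member probe sets and of the probe set that Cpt1b shares with 2 other genes, with limma's 95% interval. The intervals of all member probe sets but 1442732_at of Hadhb include 0, and the shared probe set lies from 0.60 to 2.26.

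Over all 17 probe sets, means were higher in Naa10-KO for 8 and lower for 9, and adjusted p-values lay between 0.665 and 0.982. The genotypes did not overlap in 2 of the 17, 1442732_at of Hadhb (higher) and the Acads probe set (lower), against 15.9% of all probe sets. Genes with several probe sets did not give 1 sign throughout: Cpt1a and Hadh had both signs, while the 3 probe sets of Hadhb were all higher in mean and the 2 of Cpt2 and the 2 of Acadl all lower.

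Cpt1b was read only through the probe set 1418328_at, which the annotation gives to Cpt1b, to its neighbour Chkb and to Gm44502, the read-through locus of the pair. Chkb makes choline kinase β. The probe set read 8.50, 9.14 and 8.49 in Naa10-KO fat, against 6.80, 7.69 and 7.35 in WT fat, and the lowest Naa10-KO array exceeded the highest WT array. It averaged 8.71 ± 0.37 in Naa10-KO and 7.28 ± 0.45 in WT (SD, n = 3 each), which is 2.70-fold of WT with a 95% interval of 1.52 to 4.80. The difference of 1.43 (SE 0.33) had an unadjusted p of 0.00628 and did not pass the test over all probe sets, with an adjusted p of 0.441 (limma). Over the alternatives the difference lay between 1.19 and 1.64, and its adjusted p between 0.0415, with limma's trend and robust options, and 0.628. Chkb's own probe set read 9.63, 9.82 and 9.54 in Naa10-KO and 9.89, 9.46 and 9.46 in WT, a difference of 0.06 (SE 0.21). Which of the 3 annotated transcripts the shared probe set read was not tested.

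Cpt1a and the shared probe set were then set against each other within each array. The log2 value of the shared probe set minus that of the brightest Cpt1a probe set was −1.0, −1.63 and −2.95 in Naa10-KO and −4.37, −3.71 and −2.89 in WT. Only Naa10-KO mouse 3 and WT mouse 3 overlapped, by less than 0.1. The groups differed by 1.80, or 3.48-fold, with an exact 2-sided permutation p of 0.2, where 3 against 3 arrays cannot go below 0.1. Against the tighter Cpt1a probe set 1460409_at the values were −1.43, −1.30 and −1.65 in Naa10-KO and −3.14, −2.59 and −3.02 in WT, without overlap. That difference was 1.46, or 2.75-fold, with an exact permutation p of 0.1. Against Chkb's own probe set the shared one differed by 1.37 (exact permutation p = 0.1). The shared probe set and Chkb were chosen after their values were seen, so these permutation p-values are no independent check.

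**Figure D3:**
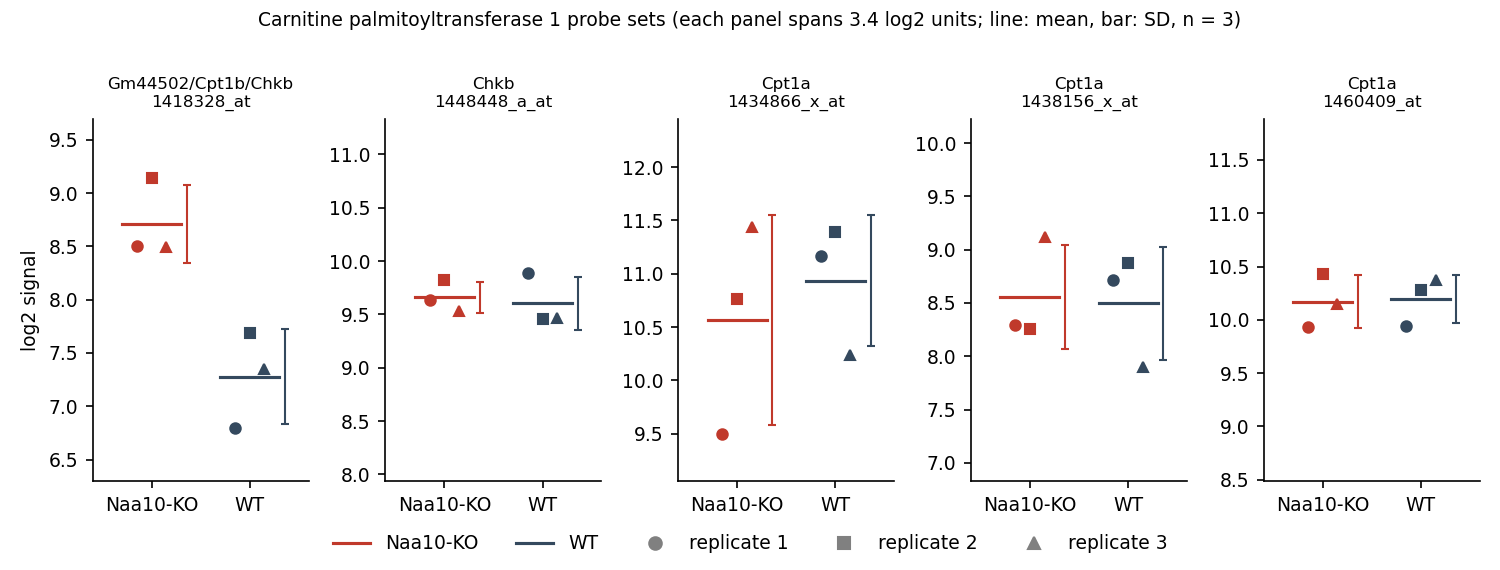
Log2 signal on each array of the probe set shared by Cpt1b, Chkb and Gm44502, of Chkb's own probe set and of the 3 Cpt1a probe sets, for Naa10-KO (left) and WT (right); points are arrays, lines are means and bars are SD (n = 3 each). The shared probe set is separated by genotype (8.71 ± 0.37 in Naa10-KO, 7.28 ± 0.45 in WT), while the other 4 overlap.

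Cpt1b is used by skeletal muscle and by thermogenic adipocytes, and the markers of both are given beside it. Of 24 skeletal muscle genes, 23 had a higher mean in Naa10-KO, and 21 lay above WT on every array, as 10% of all genes did. Their mean log2 signal was 10.73, 10.58 and 10.89 in Naa10-KO and 4.826, 5.354 and 8.034 in WT, and on the WT arrays 18, 16 and 3 of the 24 genes lay below the low-signal mark. In that list only Pvalb, the parvalbumin of fast muscle, passed the test, with 13.52, 13.50 and 13.98 in Naa10-KO against 9.68, 9.29 and 10.28 in WT (difference 3.92, SE 0.31, limma adjusted p = 0.0409). Myl1, a myosin light chain, differed by 3.08 (adjusted p = 0.053) and Pygm, the muscle glycogen phosphorylase, by 3.70 (adjusted p = 0.0691), with 2 of the 3 WT arrays of Pygm below the low-signal mark.

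Of 15 measured brown and beige adipocyte genes, 10 had a higher and 5 a lower mean in Naa10-KO. Of the 15, 7 lay above WT on every array, as 10% of all genes did, and 0 were called. The mean log2 signal of the 15 genes was 8.135, 8.717 and 8.196 in Naa10-KO and 7.162, 7.253 and 6.998 in WT, and their median difference was 0.56. Lower means were those of Dio2 (difference −0.97), Lhx8 (−0.31), Otop1 (−0.31), Tmem26 (−0.21) and Prdm16 (−0.12), with Dio2 below the low-signal mark on every array. Ucp1, the uncoupling protein of thermogenic fat, read 9.56, 10.75 and 9.55 in Naa10-KO fat against 4.75, 4.01 and 2.60 in WT fat (difference 6.17, SE 0.65, limma adjusted p = 0.0713), and all WT arrays lay below the low-signal mark. Slc27a2, a fatty acid transporter, differed by 5.50 (adjusted p = 0.0954), again with all WT arrays below that mark, and Cox7a1, a cytochrome oxidase subunit found in heart, muscle and brown fat, by 2.00 (adjusted p = 0.0582). The parts of muscle and of thermogenic adipocytes in the signal of the shared Cpt1b probe set cannot be told apart in these samples. Without WT mouse 3, the WT array with the most muscle signal, the difference of the shared probe set was 1.47 (limma adjusted p = 0.543). That value does not separate the parts, because the muscle list still differs between the arrays left. Its means there are 10.58 to 10.89 in Naa10-KO and 4.826 and 5.354 in WT.

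Markers of adipocytes, the cells that define the labelled tissue, were bright on every array. The 10 measured genes had mean log2 signals of 13.98, 14.23 and 14.09 in Naa10-KO and 14, 14 and 14.4 in WT, and their median difference was −0.10. Among them Pck1 differed by 0.65, Lep by −0.33 and Cidec by −0.33. The median difference was 0.08 over 12 macrophage genes (Cd68 −0.39, Lyz2 0.24, Cd14 0.43) and 0.01 over 10 endothelial genes (Pecam1 0.33, Tek 0.27, Emcn 0.22), with 0 called in each list. The 6 heart muscle genes had mean log2 signals from 2.919 to 3.064 in Naa10-KO and from 3.31 to 3.602 in WT. These means lay below the low-signal mark on all arrays, with 5 or 6 of the 6 genes below it on each. Ryr2 was the gene above it, on Naa10-KO arrays 1 and 3 (5.99 and 6.30) and WT arrays 1 and 2 (6.69 and 6.28). Tnnt2, Tnni3 and Nppa, the 3 heart genes with the lowest unadjusted p, all lay below that mark.

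**Figure D4:**
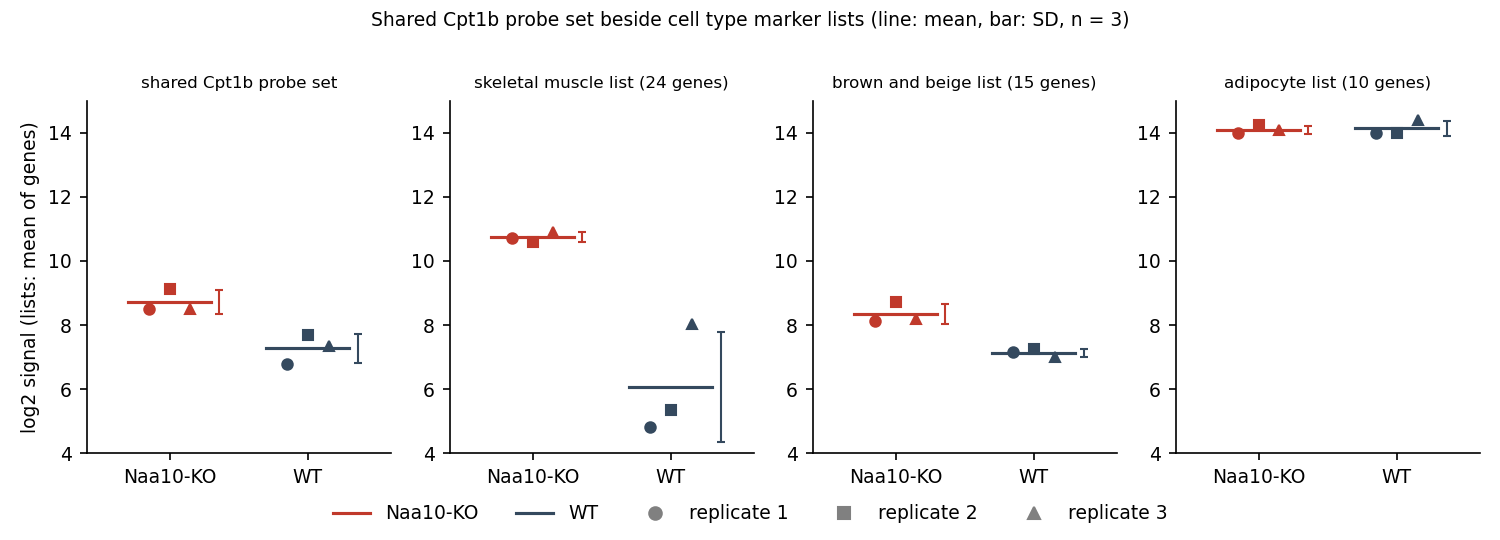
Log2 signal on each array of the shared Cpt1b probe set beside the mean log2 signal of the marker lists, for Naa10-KO (left) and WT (right); points are arrays, lines are means and bars are SD (n = 3 each). The skeletal muscle mean lies between 10.58 and 10.89 in Naa10-KO and between 4.826 and 8.034 in WT, with WT mouse 3 the highest of the WT arrays.

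Outside the members, the enzymes and carriers of the same pathway were sorted into 6 lists, and 0 of their 68 measured genes passed the test in either direction. Without overlap, 15 of the 68 lay above WT and 6 below it, against 10% and 8.14% of all genes. The 16 other mitochondrial β-oxidation genes had 9 higher and 7 lower means (median difference 0.07). Acsm3, a medium-chain acyl-CoA synthetase, read 11.06, 10.39 and 9.60 in Naa10-KO and 7.51, 8.25 and 9.29 in WT (difference 2.00, SE 0.59, limma adjusted p = 0.481). Acad9, an acyl-CoA dehydrogenase that also takes part in complex I assembly, read 9.78, 9.98 and 9.93 in Naa10-KO and 10.51, 10.82 and 10.13 in WT (difference −0.59, SE 0.22, limma adjusted p = 0.531). Acot2, a mitochondrial acyl-CoA thioesterase, differed by 0.67 (SE 0.29). Each of these 3, named for the lowest unadjusted p of the list, separated the genotypes, Acad9 with Naa10-KO below WT. Of the 16 genes, 4 lay above WT without overlap and 2 below it.

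For the supply of acyl-carnitine, 12 of 13 genes were measured, with 9 higher and 3 lower means and a median difference of 0.15. Slc25a20, the carrier that brings acyl-carnitines across the inner membrane between the 2 transferase steps, read 13.18, 13.15 and 13.25 in Naa10-KO against 13.01, 12.96 and 13.05 in WT, without overlap (difference 0.19, SE 0.13, limma adjusted p = 0.672). Crat, which moves short acyl groups to and from carnitine, differed by 0.57 (adjusted p = 0.53), and Acsl3, an acyl-CoA synthetase, by 0.65 (adjusted p = 0.503). Acsl6, another acyl-CoA synthetase, differed by 3.73 (adjusted p = 0.354), but all 3 WT arrays and 1 Naa10-KO array lay below the low-signal mark. In the electron transfer list all 5 means were higher in Naa10-KO. Etfa, the α subunit of the flavoprotein that takes electrons from the dehydrogenases, differed by 0.12, Etfbkmt, which methylates its β subunit, by 0.22 and Etfrf1, a regulatory factor, by 0.18. Etfa, Etfbkmt and Etfrf1 had adjusted p-values from 0.744 to 0.798 (limma).

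Malonyl-CoA control, the step that regulates carnitine palmitoyltransferase 1, had 8 higher and 2 lower means and a median difference of 0.33. Prkaa2, the α2 catalytic subunit of AMP-activated protein kinase, read 9.31, 9.21 and 9.34 in Naa10-KO fat against 8.24, 8.37 and 8.55 in WT fat, without overlap. Its difference of 0.90 (SE 0.15) had an adjusted p of 0.187 in limma, and of 0.0479 once genes of low signal were removed, with a range of 0.0277 to 0.598 over the alternatives. Prkab2 differed by 0.46 (adjusted p = 0.483) and Prkab1 by 0.34 (adjusted p = 0.578), 2 regulatory subunits of the same kinase. The 2 lower means were those of further subunits of this kinase, Prkag3 and Prkag1. Prkag3 lay below WT without overlap (difference −0.60, limma adjusted p = 0.585), and Prkag1 differed by −0.01. Acacb, the acetyl-CoA carboxylase whose malonyl-CoA acts at the mitochondrial surface, read 10.66, 10.22 and 9.71 in Naa10-KO and 8.85, 9.44 and 10.33 in WT, with overlap (difference 0.66, SE 0.45, adjusted p = 0.676). As muscle also makes Prkaa2, its values stand beside the muscle markers above, whose part in it was not tested.

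Of the regulators of the pathway and their targets, 15 of 16 were measured, with 11 higher and 4 lower means and a median difference of 0.16. Ppargc1a, the transcriptional coactivator of oxidative metabolism, differed by 0.27 (SE 0.33, limma adjusted p = 0.809), and Ppara, the nuclear receptor that drives fatty acid oxidation genes in liver, by 0.34 (SE 0.26, adjusted p = 0.706). Pdk4, the pyruvate dehydrogenase kinase induced in fasting, read 13.94, 13.79 and 13.45 in Naa10-KO and 13.33, 13.94 and 13.65 in WT, with overlap (difference 0.09). Plin5, a lipid droplet protein of oxidative tissues, differed by 0.74 (adjusted p = 0.529) and Ucp3, an uncoupling protein best known from muscle, by 0.64 (adjusted p = 0.532).

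The peroxisomal list ran the other way in its counts, with 3 higher and 7 lower means among 10 of 12 measured genes and a median difference of −0.16. Ehhadh, the peroxisomal bifunctional enzyme, was among the 3, with 10.77, 10.66 and 10.64 in Naa10-KO against 9.38, 9.61 and 9.92 in WT, without overlap. Its difference of 1.06 (SE 0.18) had an adjusted p of 0.216 in limma and of 0.00776 with the trend and robust options, with 0.635 as the highest over the alternatives. Acox3 differed by −0.66 (adjusted p = 0.531) and Acox2 by −1.87 (adjusted p = 0.542), with Acox2 below the low-signal mark on all 6 arrays.

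**Figure D5:**
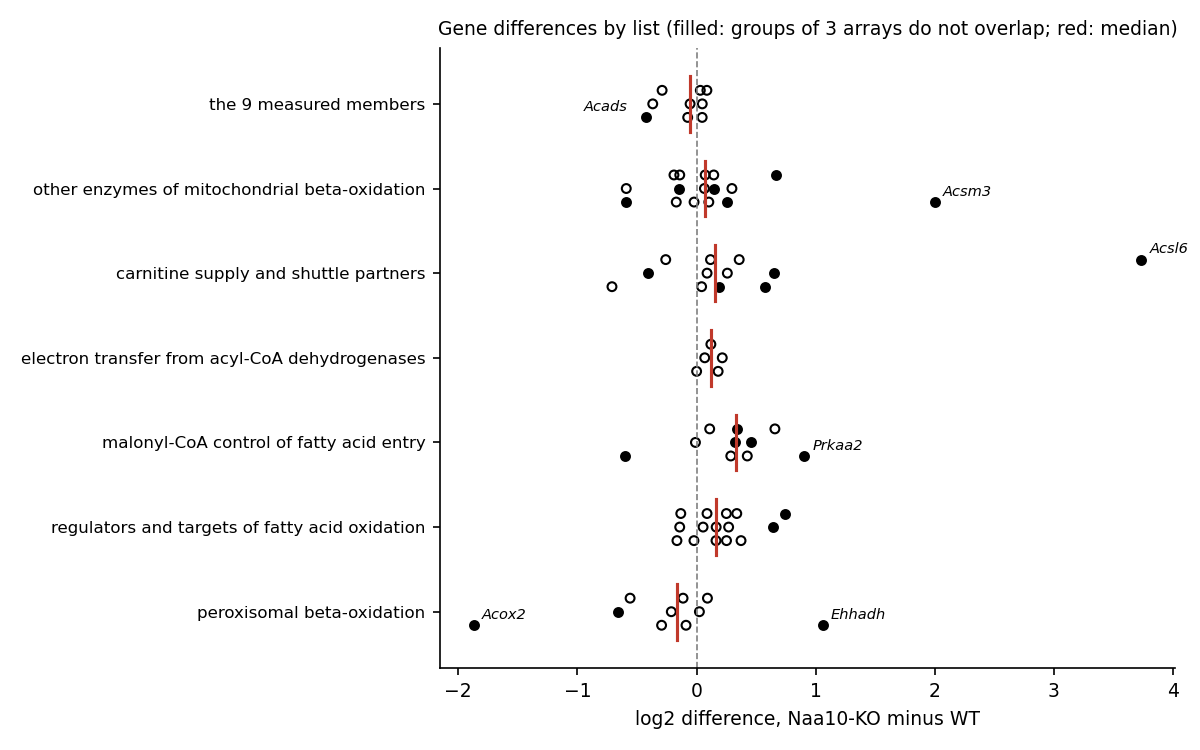
Log2 difference, Naa10-KO minus WT, of each measured gene by list; filled points are genes whose genotypes do not overlap and the red mark is the median of the list. The 9 members lie between −0.42 (Acads) and 0.09 (Acadvl), and Acads is the one filled member.

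The genes closest to the shared Cpt1b probe set in profile were Adcy2 (root mean square difference 0.272 on the log2 scale over the 6 arrays, each profile centred on its mean), Gjd4 (0.303), Tut1 (0.306), Nfe2l3 (0.313) and Slc45a1 (0.314). Their differences were 0.91 to 1.18, a separation that the likeness to the shared probe set itself selects. The genes closest to Cpt1a were Pde4a (0.182), Aspn (0.189), Sema6a (0.21), Plcg2 (0.227) and Abcb8 (0.241), and their differences lay between −0.56 and −0.12.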

How the data were processed

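The authors deposited 1 log2 signal per probe set and array. On the linear scale the trimmed mean was 500 on all 6 arrays, and array medians lay between 5.776 and 5.964. The software behind them is not stated, and no detection calls were used. Gene names came from the platform annotation held by GEO. Values were used as deposited. Each of 18193 genes took its probe set with the highest mean. The genotypes were set against each other by lmFit and eBayes of limma 3.58.1 (R 4.3.3, genotype alone, 2-sided), with Benjamini-Hochberg adjustment over all genes and a threshold of 0.05. A second fit used all 45037 probe sets other than the 64 controls. limma's prior degrees of freedom were 1.39, and the number of arrays limits the precision. The steps were tested on simulated data.

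The members and lists were chosen with earlier results of these data known. Named are all members and their probe sets, the 3 genes of each other list with the lowest unadjusted p, Ppargc1a, Ppara, Ucp1, Acacb, Slc25a20 and Pdk4, and the 5 genes closest in centred profile to Cpt1b and to Cpt1a, among genes whose higher group mean reached the median of all probe set values. Chkb was added after its values were seen. A planned contrast of Cpt1b with Cpt1a could not be made on probe sets of 1 gene, and the shared probe set took its place, chosen after the annotation and the values were seen. The limma p-values set a difference in means against the spread between these mice, moderated by that of all genes or probe sets. The permutation p-values set the difference against those of every grouping of the arrays. Array numbers 1 to 3 did not pair the genotypes: correlations of same-numbered deviations were −0.00671, −0.00574 and −0.0306. Alternatives were quantile normalization, centring on the array median, a filter on low values or a floor under them, averaging a gene's probe sets, leaving out x_at and s_at probe sets, array weights, eBayes with trend and robust, a block for replicate number, an adjusted p of 0.1, and leaving out each array.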

Additional observations from a re-analysis of the deposited data

How the results depend on the processing

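Under all 16 alternatives, 0 of the measured members passed the limma threshold in either direction, with 0 to 1 of them at an unadjusted p under 0.05. The number of all genes called moved from the reported 16 higher and 5 lower in Naa10-KO to 75 and 12 after genes of low signal were removed, 105 and 14 with a floor under low values, 102 and 35 with limma's trend and robust options, 40 and 10 at an adjusted p of 0.1, and 0 and 0 with the mean of all probe sets (1491 genes at an unadjusted p under 0.05). Array weights gave 27 higher and quantile normalization 3 lower. With the replicate number as a block, 0 and 0 genes were called (1276 at an unadjusted p under 0.05), and members stayed at 0. Leaving out 1 array gave 0 to 29 higher and 0 to 1 lower, and calls were made only without WT mouse 3 (29 and 1). The other pathway lists had 1 call with genes of low signal removed (Prkaa2) and 2 each with the floor and with the trend and robust options (Prkaa2 and Ehhadh), against 0 as reported. The skeletal muscle list had 1 call as reported and 0 to 15 over the alternatives.

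The median difference of the members lay between −0.19 (without WT mouse 1) and 0.028 when 1 array was left out. The shared Cpt1b probe set minus Cpt1a stayed between 1.37 and 2.34. Signs turned for members near 0: Acadm to −0.10 and Hadh to −0.067 with quantile normalization, 1460184_at to −0.0013 there, Hadh to −0.13 with the mean of all probe sets, and with array weights Hadhb to −0.029, 1438156_x_at to −0.056 and 1460409_at to 0.045. The mean of all probe sets also moved Acadl from −0.07 to −0.70, Cpt2 from −0.05 to −0.30, Hadhb from 0.05 to 0.35 and Cpt1a from −0.37 to −0.11, none past the threshold (adjusted p 0.723 to 0.944). Leaving out 1 array, the differences ran from −0.80 to 0.17 for Cpt1a, −0.21 to 0.043 for Cpt2, −0.19 to 0.046 for Acadl, −0.0013 to 0.063 for Acadm, −0.16 to 0.16 for Hadhb, −0.039 to 0.199 for 1426522_at, −0.24 to 0.25 for 1438156_x_at, −0.16 to 0.091 for 1460409_at and −1.20 to 0.67 for 1436756_x_at. The cause was not tested.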

Other observations

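The 6 member probe sets whose names end in x_at, a suffix for probe sets with probes that can match other transcripts, varied more among mice of a genotype than the 11 others, with a median within-group SD of 0.622 against 0.215. Over all probe sets with a mean at or above the median of all values, that SD was 0.247 for 1561 x_at probe sets and 0.257 for 15284 plain ones. For the 6 member x_at probe sets, the median deviation from the mean of the same genotype was −0.0955, −0.249 and 0.703 on the Naa10-KO arrays. On the WT arrays it was 0.226, 0.226 and −0.403. In 4 of the 6, Naa10-KO array 3 was the highest and WT array 3 the lowest of its genotype. The same held for 1 of 11 other member probe sets, 20.4% of those 1561 x_at probe sets and 13.4% of the 15284 plain ones. The 4 are 1434866_x_at and 1438156_x_at of Cpt1a, 1437172_x_at of Hadhb and 1436756_x_at of Hadh, so Cpt1a is counted more than once. The brightest probe sets of Cpt1a and Hadhb are among the 4. That of Hadh is also an x_at probe set but ran the other way, with Naa10-KO array 3 its lowest (15.26) and WT array 3 its highest (15.33). The pattern was seen in the data and has no test.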
